A study of Mus musculus with 2 samples.

Results

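Cluster C3 of B16F0 held 640 of the 2582 B16F0 cells and of the 4156 cells of both lines. Its members were the cells that the authors' deposited cell table assigns to the line B16F0 and, in its second clustering, to C3. B16F0 is labelled the parental line of the mouse B16 melanoma, and B16F10 a highly metastatic subclone. Both were cultured cells, for which the labels name no treatment, and each gave 1 droplet library in which the 3' ends of messenger RNA were counted by unique molecular identifiers (UMIs). The other 1942 B16F0 cells were divided among C1 (816 cells), C2 (644), C4 (469) and C5 (13), and a further 306 B16F10 cells carried the label C3. With 1 library per line there was no replicate, so no test was made, and every interval below covers counting error only. The clusters are taken to rest on the expression of these same cells, so the gene values describe C3 and are not evidence that it is separate. A level sums the UMIs of a gene over the cells of a class and is given per 1000000 UMIs of that class (CPM).

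Melanocytes and pigmented melanoma cells make melanin inside melanosomes, organelles related to lysosomes. Tyrosinase, encoded by Tyr, carries out the rate-limiting step, Tyrp1 and Dct act after it, and the Pmel protein forms the fibrils on which the pigment is laid down. The transcription factor MITF binds short E-box sequences near many of these genes, and high MITF activity is a known mark of the differentiated state of melanoma cells.

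The markers given for the cluster were present in nearly all of its cells. Pmel had a UMI in 639 of 640 C3 cells (99.8%) and in 97.4% of the other B16F0 cells, and Mlana, a melanosome membrane protein, in 639 of 640 and in 99.9%. Both markers were therefore shared by the whole line, and C3 differed in level, not in their presence. Median depth was 34614.5 UMIs per cell in C3 and 35801 in the other cells, with 5099 and 5266.5 genes detected. The median mitochondrial share was 5.20% against 5.40%, and the ribosomal protein share 29.0% against 27.9%. Markers of other cell types were low in both classes. The summed level of 10 fibroblast markers, of which 5 were measured, was 5.78 CPM in C3 and 4.60 CPM elsewhere. The 3 measured of 10 macrophage markers summed to 9.74 and 9.55 CPM, the 1 measured of 10 keratinocyte markers reached 0.565 and 1.19 CPM, and none of 10 T and NK cell markers was among the measured genes. Of 10 endothelial markers 5 were measured, with sums of 119 and 116 CPM, mainly from Egfl7 (63.2 and 67.1 CPM) and Eng (54.3 and 48.1 CPM). In C3, Acta2 of the first list and Esam of the last were at 0.

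C3 was the least cycling cluster of B16F0 and carried the highest MITF score. Both traits were named when the cluster was chosen for description, so they are not findings. The genes behind the score are not given, so its overlap with the pigment genes below is not known. The authors' class called 569 of its 640 cells non-cycling (88.9%, Clopper-Pearson 95% interval 86.2 to 91.2%), against 31.0% of the other B16F0 cells, 73.2% in C1, 0.466% in C2 and 0.426% in C4. In every deposited cell the cycling class coincides with an S or a G2/M score that exceeds 0, so it reads the levels of cycle genes and not division itself. On the authors' trajectory, 421 C3 cells (65.8%) were in state 7, 124 in state 6 and 95 in state 5, and none in states 1 to 4. C3 thereby supplied 92.7% of the 454 B16F0 cells of state 7. The median of the deposited GSVA score for MITF was 0.281 (SD 0.260 over cells) in C3, 0.133 in C4, 0.0163 in C1 and -0.173 in C2, and in B16F10 cells of C3 it was 0.00239. A score above 0 was found in 82.8% of C3 cells and in 47.6% of the other B16F0 cells. The authors' Kdm5b-high class held 64 C3 cells (10.0%) and 47 of the other 1942 (2.42%). Among non-cycling cells the shares were 10.7% in C3, 4.98% in the other B16F0 cells and 22.5% in B16F10 cells of C3. Over all B16F10 cells of C3 the share was 20.9%. Kdm5b encodes a histone demethylase known as a marker of slow-cycling melanoma cells, and its level was 18.8 CPM in C3 and 6.64 CPM in the other B16F0 cells.

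Pigment genes were higher in C3, by very different amounts. Tyr stood out: its summed level was 26.9 CPM in C1, 16 in C2, 141 in C3 and 89.3 in C4. C3 was above every other cluster and C4 above C1 and C2, with no overlap of the counting intervals. The log2 ratio of C3 over all other B16F0 cells was 1.84 (95% interval 1.76 to 1.91), and of non-cycling C3 over the other non-cycling B16F0 cells 2.33 (2.20 to 2.46). The second comparison sets cells of the same deposited class side by side, and 597 of its 602 comparison cells belonged to C1. After each cell was thinned to 19254 UMIs, which left out 46 C3 cells and 195 others, Tyr was found in 85.2% of C3 cells (82.1 to 87.9%) and in 36.8% of the others (34.5 to 39.1%); without thinning the shares were 90.3% and 46.5%. The cultures held no cell type known to lack these genes, and the background from RNA outside cells could not be read from them.

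The enzymes that act after tyrosinase differed less. Tyrp1 had 1136 CPM in C1, 1178 in C2, 1701 in C3 and 1656 in C4, a log2 ratio of 0.41 against all other cells and 0.57 among non-cycling cells. Dct followed the same order of high and low clusters, with 1815, 1724, 2975 and 2873 CPM and ratios of 0.53 and 0.74. Against all other cells 1 of the 3 enzymes was at least 1.5-fold higher, and among non-cycling cells 2 were, with medians of 0.53 and 0.74, beside 3.26% and 5.35% of all genes that reached 10 CPM. For both Tyrp1 and Dct the C3 and C4 levels lay together and the C1 and C2 levels lay together.

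Genes of the melanosome itself ranged from strongly to weakly differing. Pmel had 965 CPM in C1, 727 in C2, 1828 in C3 and 1615 in C4, with log2 ratios of 0.79 and 0.88. Trpm1, a melanocyte cation channel, had 63.6, 38.8, 130 and 86.7 CPM (1.08 and 1.01), and Tspan10, a tetraspanin, had 47.2, 27.2, 92.9 and 63.9 CPM (1.05 and 0.97). In these genes C3 was highest and C2 lowest. Gpr143, the receptor altered in ocular albinism, had ratios of 0.73 and 0.63. The transporters Slc45a2 (0.48 and 0.59) and Slc24a5 (0.45 and 0.57) and the melanosome glycoprotein Gpnmb (0.51 and 0.54) were higher by smaller amounts. Smaller still were the ratios of Mlana (0.23 and 0.20) and of Cd63, a tetraspanin of melanosomes and lysosomes (0.28 and 0.14). Atp7a, a copper transporter, had 10.8 against 9.41 CPM, and its interval in both comparisons included no difference.

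Of the 10 melanosome genes that reached 10 CPM, of 13 measured, 4 were at least 1.5-fold higher in C3 than in all other cells and none was 1.5-fold lower, with a median log2 ratio of 0.49. Over all 7199 genes at that level, 3.26% were 1.5-fold higher, and the median was -0.04. Among non-cycling cells 5 of 10 were 1.5-fold higher, with a median of 0.58, beside 5.35% of 6934 genes and a median of 0.02.

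**Figure D1:**
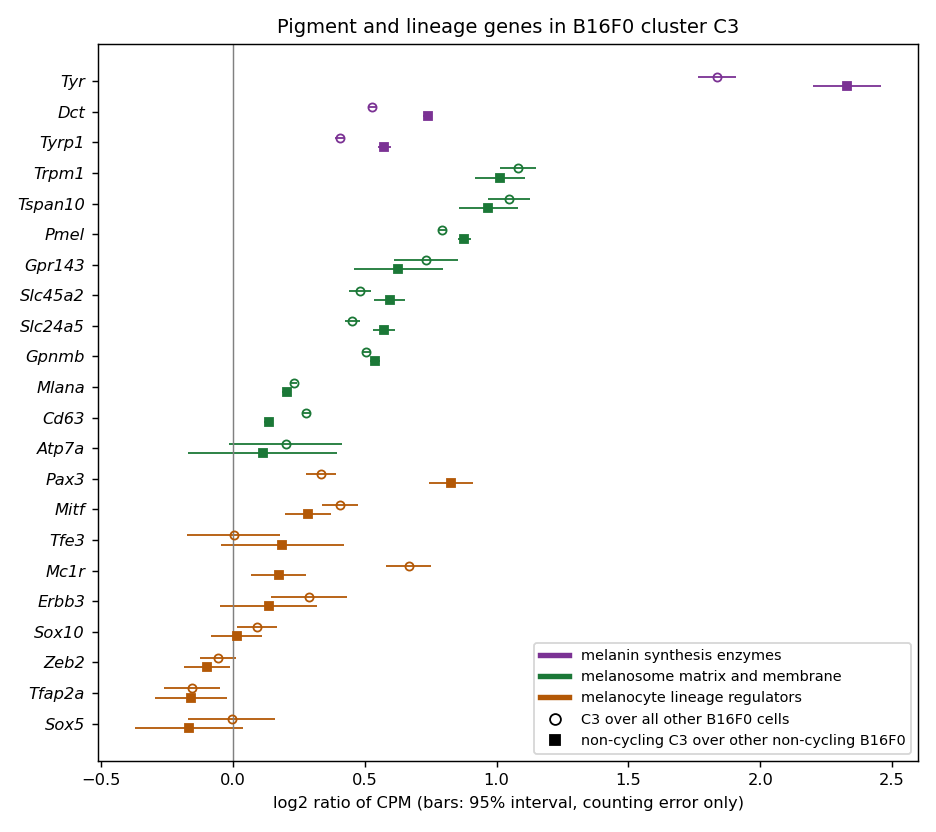
The x axis gives the log2 ratio of CPM for each measured pigment or lineage gene with at least 10 CPM, open circles for C3 over all other B16F0 cells and filled squares for non-cycling C3 over the other non-cycling B16F0 cells, with bars for the 95% counting interval and colours for the gene list. Tyr lies farthest to the right, at 1.84 and 2.33, and Zeb2, Tfap2a and Sox5 lie at or below 0.

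The promoters of several of these genes carry the letters that MITF is known to bind. RefSeq start sites on GRCm38.p6 were matched for 12 of the 16 measured genes of the 2 pigment lists, with 13 windows of the 250 bases before the start. No start was matched for Pmel, Mlana, Gpr143 or Slc45a2, so the 2 markers of the cluster were not read. The hexamer CATGTG or CACGTG was present, on either strand, in 9 of the 12 genes, and the longer TCATGTG, which contains the first hexamer, in 6. Cd63, Gpnmb and Mfsd12 had neither hexamer, while Slc24a4 and Atp7a had CACGTG. Of these, Atp7a differed little. Slc24a4 was seen in few cells, with a UMI in 28 of 640 C3 cells and 29 of the 1942 other B16F0 cells. Over all 32851 promoter windows of that length the shares were 17.6% and 3.25%. The lists were made of pigment genes, many already known for MITF binding, so their higher shares are background and not a result about C3. The windows of 3 genes with large ratios (Tyr, Trpm1 and Tspan10) and of the other 2 enzymes are shown 5′ to 3′ in the direction of the gene, with CATGTG or its reverse complement in capitals.
Tyr, chr7:87493513-87493762, minus strand: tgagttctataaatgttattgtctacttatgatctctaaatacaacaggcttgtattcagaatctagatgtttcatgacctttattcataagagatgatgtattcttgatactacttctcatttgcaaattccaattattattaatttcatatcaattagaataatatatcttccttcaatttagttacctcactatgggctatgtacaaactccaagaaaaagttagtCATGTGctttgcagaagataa
Tyrp1, chr4:80833963-80834212, plus strand: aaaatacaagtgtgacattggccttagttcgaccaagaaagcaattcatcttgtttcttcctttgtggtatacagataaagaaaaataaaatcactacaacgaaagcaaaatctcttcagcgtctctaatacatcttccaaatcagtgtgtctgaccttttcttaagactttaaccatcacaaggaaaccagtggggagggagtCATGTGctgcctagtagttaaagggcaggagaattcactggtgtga
Dct, chr14:118052247-118052496, minus strand: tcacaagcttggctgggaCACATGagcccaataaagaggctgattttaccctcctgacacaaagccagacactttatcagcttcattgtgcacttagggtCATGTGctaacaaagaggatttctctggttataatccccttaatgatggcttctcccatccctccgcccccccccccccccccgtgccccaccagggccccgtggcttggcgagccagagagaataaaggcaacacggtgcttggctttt
Trpm1, chr7:64153585-64153834, plus strand: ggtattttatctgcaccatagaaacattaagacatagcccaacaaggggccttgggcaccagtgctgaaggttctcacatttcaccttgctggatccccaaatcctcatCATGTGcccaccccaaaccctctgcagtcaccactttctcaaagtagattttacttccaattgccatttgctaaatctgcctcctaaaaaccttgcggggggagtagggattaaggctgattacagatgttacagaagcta
Tspan10, chr11:120442381-120442630, plus strand: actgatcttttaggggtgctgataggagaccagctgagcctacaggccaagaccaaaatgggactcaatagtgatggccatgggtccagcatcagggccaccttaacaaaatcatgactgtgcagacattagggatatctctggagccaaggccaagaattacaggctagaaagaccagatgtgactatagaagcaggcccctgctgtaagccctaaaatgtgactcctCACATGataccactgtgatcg
The hexamer begins 21 bases before the start of Tyr, 46 before Tyrp1, 141 before this start of Trpm1 and 21 before Tspan10, and Dct has it at 232 and 150 bases. Tyr and Tyrp1 thus both hold TCATGTG close to the start, beside log2 ratios of 2.33 and 0.57 among non-cycling cells. A match is a description of the letters in this window, not a measured binding site.

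The regulators of the lineage differed little. Mitf itself had 89.9 CPM in C1, 72.6 in C2, 111 in C3 and 88.4 in C4, with log2 ratios of 0.41 (0.34 to 0.47) and 0.29 (0.20 to 0.37). Sox10, a neural crest transcription factor that acts upstream of Mitf, was at 84.1 CPM in C3 and 79.0 elsewhere (0.09), and among non-cycling cells its interval of -0.08 to 0.11 included no difference. Pax3, another activator of Mitf, had 89.9 CPM in C1, 113 in C2, 157 in C3 and 193 in C4. Cycling C4 over cycling C2 gave 0.78, and cycling C3 over the other cycling B16F0 cells, which include those of C4, gave -0.11. Pax3 was 1.5-fold higher among non-cycling cells, 161 against 90.9 CPM (0.83), but differed by 0.33 against all other cells. Mc1r, the melanocortin receptor, showed the reverse: 0.67 against all other cells and 0.17 among non-cycling cells. Of 9 regulators with at least 10 CPM, 1 was 1.5-fold higher in each comparison, beside 3.26% and 5.35% of all genes, and none lower. Transport of melanosomes also differed little: the median of 21 genes was 0.10 and 0.13, and the 1 gene at 1.5-fold in both was Sytl2, a Rab27 effector, with 33.0 against 17.7 CPM (0.90 and 1.09).

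Genes named as MITF targets outside pigmentation were mixed. Met, the receptor for hepatocyte growth factor, was 27.5 CPM in C3 against 8.49 CPM, with ratios of 1.70 and 2.14, and its level in B16F10 cells of C3 was 189 CPM. Cdk2, a cyclin-dependent kinase whose gene adjoins Pmel, was 92.5 CPM in non-cycling C3 against 53.3 CPM (0.80). Apex1, a DNA repair endonuclease, had a ratio of 1.06 among non-cycling cells, and the cycle inhibitor Cdkn1a was lower, -0.49 and -0.26. Of the 15 genes, 2 were 1.5-fold higher against all other cells and none lower, with a median of 0.13, beside 3.26% higher over all genes. Among non-cycling cells 3 were higher (Met, Apex1 and Cdk2) and 1 lower (Gmpr, -0.74), with a median of 0.16, beside 5.35% higher and 3.12% lower over all genes.

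**Figure D2:**
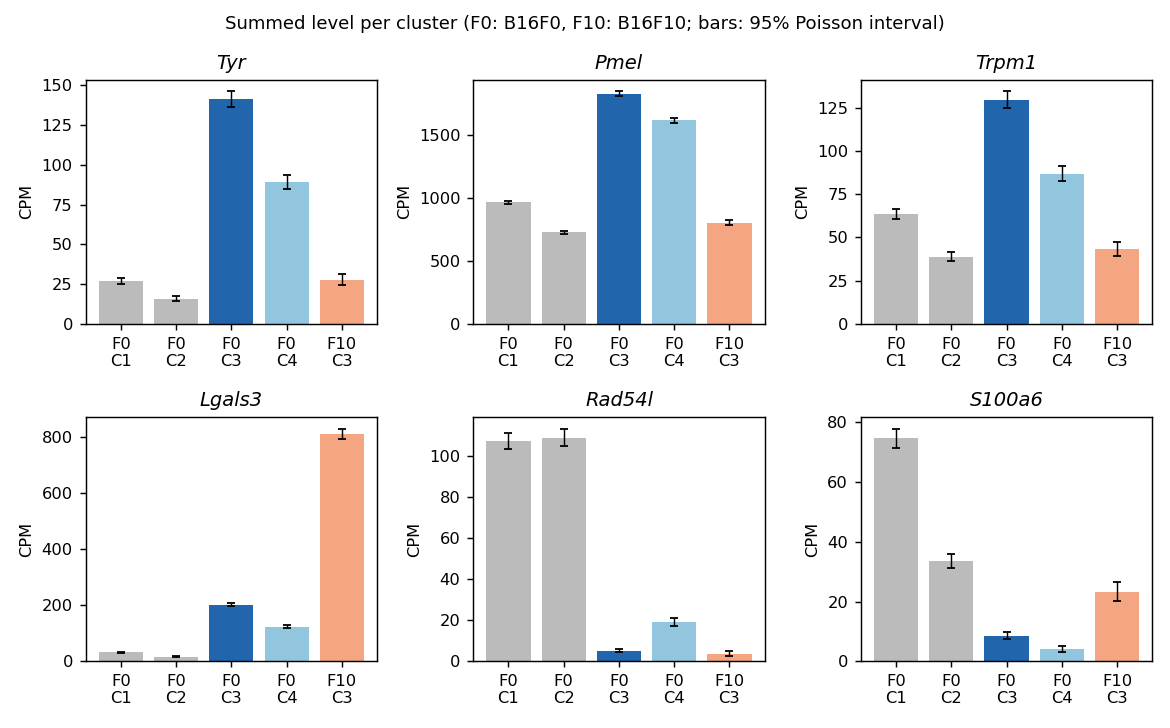
Bars give the summed level in CPM of 6 genes in the 4 larger B16F0 clusters and in B16F10 cells of C3, on axes that start at 0, with 95% Poisson intervals. Tyr, Pmel and Trpm1 are highest in B16F0 C3, Rad54l and S100a6 are high in C1 and C2 and low in C3 and C4, and Lgals3 is highest in B16F10.

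Against all other B16F0 cells, many of the lower genes were cycle genes. Over the 5017 genes that reached 20 CPM in either class, 169 (3.37%) were at least 2-fold lower in C3 and 27 (0.538%) at least 2-fold higher, and 47 of the lower genes were members of the S phase or G2/M lists. Prc1, which organises the spindle midzone, was 2.78 against 54.7 CPM (-4.30). Top2a, the topoisomerase of replicating chromosomes, was 15 against 164 CPM (-3.45), and the proliferation marker Mki67 was 2.57 against 25 CPM (-3.29). The S phase list had 39 of 42 members at least 1.5-fold lower (median -1.39) and the G2/M list 47 of 50 (median -2.25), where 8.15% of all genes were 1.5-fold lower. Among non-cycling cells these medians were -0.14 over 27 genes and -0.16 over 25 genes. None of the first was 1.5-fold lower or higher. Of the second 2 were lower and 1 higher, beside 3.12% and 5.35% of all genes. Cells on both sides of that comparison had S and G2/M scores not above 0, so they were selected for low cycle genes. The drop against all other cells likewise stands beside shares of non-cycling cells of 88.9% in C3 and 31.0% elsewhere. Some of the higher genes also had smaller ratios among non-cycling cells. Hist1h2bc, a histone gene whose transcript is polyadenylated, went from 1.63 to 0.83, Tmem150a from 1.27 to 0.58 and Kdm5b from 1.5 to 0.68.

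Among non-cycling cells, 55 of 4819 genes (1.14%) were at least 2-fold higher in C3 and 45 (0.934%) at least 2-fold lower. Lgals3, which encodes the secreted lectin galectin, led the higher genes. It had 33.1 CPM in C1, 17.1 in C2, 202 in C3 and 124 in C4, with log2 ratios of 2.79 (2.66 to 2.93) among non-cycling cells and 1.95 against all others, and after thinning it was found in 54.2% of C3 cells and 26.1% of the others. Tyr followed (2.33), and outside the pigment genes Arfgef3 had 81.8 against 17.9 CPM (2.19) and Creg1, a secreted lysosomal glycoprotein, 174 against 58.6 CPM (1.57). Ero1l, an oxidase of the endoplasmic reticulum, had 211 against 75.4 CPM (1.48), and Cited1, a transcriptional coregulator found in melanocytes, 98.4 against 35.9 CPM (1.45). Apoe, the apolipoprotein, was 1199 against 555 CPM (1.11), and Ptgds, which makes prostaglandin D, 2063 against 1139 CPM (0.86). In each of these genes C3 and C4 were above C1 and C2.

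The lower genes were led by Rad54l. It encodes a motor protein of homologous recombination, and had 108 CPM in C1, 109 in C2, 5.26 in C3 and 19.1 in C4, and after thinning it was found in 7.07% of C3 cells, 28.2% of C4 cells and 82.8% of C1 cells. Its log2 ratio was -4.01 (-4.28 to -3.75) against all other cells and -4.64 among non-cycling cells. The difference did not extend to the genes around it: the adjoining Lrrc41 and Pomgnt1 had 0.42 and -0.43, and the 7 genes measured within 200 kb lay between -0.86 (Faah) and 0.42. The share of the C3 signal that free RNA from C1 and C2 cells could supply was not tested. S100a6, a calcium-binding protein, was 8.65 CPM in C3, 4.03 in C4, 74.7 in C1 and 33.7 in C2 (-2.30 and -3.08). Its neighbour S100a4, 6.84 kb away and named after its values were seen, was 1.29 against 23.5 CPM among non-cycling cells (-4.19), while S100a1, at 98.5 kb, was higher (0.77). Of 9 genes of glia and myelin, 2 were 1.5-fold lower and 1 higher (median -0.21), beside 3.12% and 5.35% of all genes. The higher one was Ptgds (0.86), and of the lower ones Mbp had 92.2 against 283 CPM (-1.62) and Pmp22 9.84 against 30.1 CPM (-1.61). The fatty acid carrier Fabp5 (-1.10), the transcription factor Mef2c (-1.20), the carbonic anhydrase Car6 (-1.79) and the hexokinase Hk1 (-1.40) were lower as well.

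Among the other lists, some members of the oxidative stress and interferon lists were higher in non-cycling C3, and some of the immediate early list lower. Over all genes 5.35% were 1.5-fold higher and 3.12% lower. Of 25 genes of oxidative stress and iron, 7 were 1.5-fold higher and none lower (median 0.27), with Srxn1, which repairs peroxiredoxins, at 84.1 against 36.8 CPM (1.19) and the heme oxygenase Hmox1 at 167 against 79.9 CPM (1.07). Against all other B16F0 cells only 1 of the 25 was 1.5-fold higher (median 0.22), beside 3.26% of all genes. In the interferon list 3 of 9 were 1.5-fold higher (median 0.44): Ifit1 (1.31), Ifit3 (1.24) and Rsad2 (0.66). Few cells carried these UMIs: in C3, 10 cells held 75.2% of those of Ifit1, 83.5% of those of Ifit3 and 44.5% of those of Rsad2. Against all other cells 2 of 10 were higher and 1 lower (median 0.52), and among cycling cells alone Rsad2 had a ratio of -0.22. H2-K1, a class I antigen-presenting gene, was 20.3 against 8.17 CPM (1.31), the 1 gene of 7 on its list at 1.5-fold (median -0.04). In the immediate early list 5 of 13 genes were 1.5-fold lower and none higher (median -0.46). Fos was at 15.6 against 32.3 CPM (-1.05), and the others were Klf2 (-3.38), Klf4 (-1.61), Zfp36 (-1.40) and Dusp1 (-0.86). Against all other B16F0 cells 3 of 12 were 1.5-fold lower and none higher (median -0.06), beside 8.15% lower over all genes. Atf3, of the same list, was above 0 in both comparisons (0.53 against all other cells and 0.45 among non-cycling cells). Lysosomal genes differed little: among non-cycling cells 1 of 28 was 1.5-fold higher, the cathepsin Ctsb (0.77), and 1 lower, the channel Mcoln1 (-0.76), with a median of 0.10, and against all other cells 3 were higher and none lower (median 0.19). In the mesenchymal and invasion list of 14 genes, 4 were 1.5-fold lower (S100a4, S100a6, Fn1 and Timp3) and 2 higher (median -0.17), beside 3.12% and 5.35% of all genes, and the higher ones were Lgals3 and the metalloprotease Mmp14 (0.80). Genes of oxidative phosphorylation (median -0.07 over 47), glycolysis (-0.06 over 15) and the chaperones (-0.06 over 17) stayed near the median of all genes.

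Cluster C4, which was almost entirely cycling, shared with C3 many of the differences from the remaining clusters. The comparison of cycling C4 with cycling C2 shares no cell with that of non-cycling C3, though all came from 1 library. Of 5188 genes, 63 (1.21%) were at least 2-fold higher in cycling C4 and 26 (0.501%) lower. The 2 comparisons shared 34 higher genes, 61.8% of those of C3 and 54.0% of those of C4, and 23 lower genes, 51.1% and 88.5%. Over 4418 genes the log2 ratios had a Pearson r of 0.87 and a Spearman rho of 0.80, given as a description, since genes are not independent. Tyr was at 2.48 among cycling cells, Lgals3 at 2.86, Arfgef3 at 1.95, Rad54l at -2.51 and S100a6 at -3.06. 5 of 9 melanosome genes were 1.5-fold higher in cycling C4 (median 0.66), 2 of 3 enzymes (0.74) and 9 of 25 genes of oxidative stress and iron (0.32), beside 5.4% of 7292 genes. None of these 3 groups held a gene 1.5-fold lower, beside 2.44% of all genes, and in the immediate early list 2 of 12 were. Tmem150a, at -0.06, and Mc1r, at -0.02, lay near 0 in C4.

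**Figure D3:**
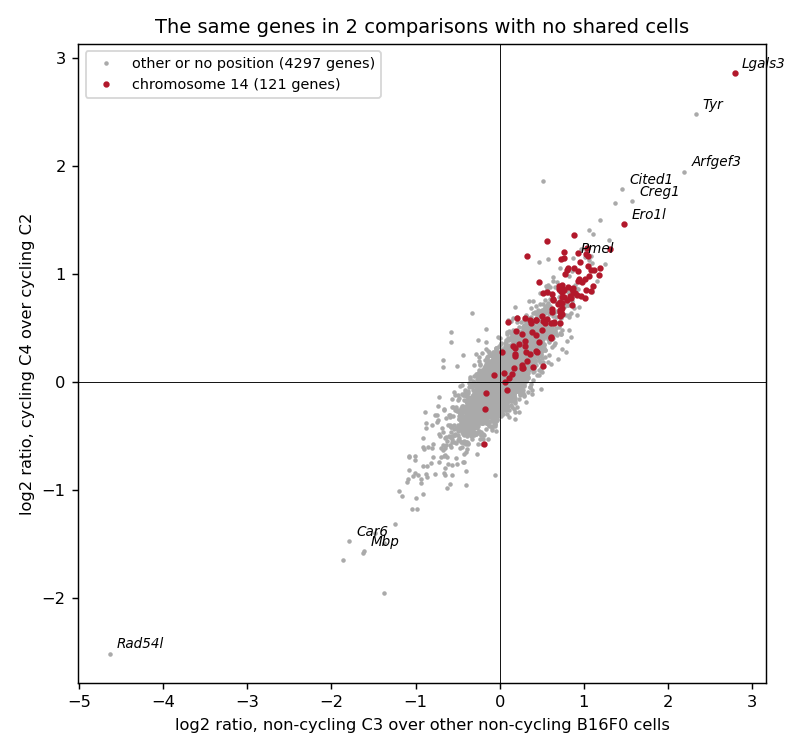
Each point is 1 of 4418 genes with a mean of at least 20 CPM in both comparisons; the x axis gives the log2 ratio of non-cycling C3 over the other non-cycling B16F0 cells and the y axis that of cycling C4 over cycling C2, with chromosome 14 genes in red. The points run along a diagonal (r = 0.87), with Tyr and Lgals3 at one end and Rad54l at the other.

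The higher genes were unevenly placed in the genome. Of the 55 genes 2-fold higher in non-cycling C3, 24 (43.6%) lie on chromosome 14, and none of the 45 lower genes does. With genes of at least 20 CPM on average that have a position in GENCODE on GRCm38, 126 of 4531 (2.78%) were on that chromosome, and their median log2 ratio was 0.71 (middle 50% of genes 0.37 to 0.87). Of these, 122 were above 0 and 75 at least 1.5-fold higher, beside 205 (4.52%) of all 4531. In all 9 windows of 10 Mb that held at least 5 genes the median was above 0, from 0.16 to 0.82. Chromosome 1 had a median of 0.33 with 237 of 250 genes above 0, chromosome 2 had 0.19 and chromosome 7 had 0.16, while the other 16 lay between -0.10 and -0.01. Lgals3, Dct, Ero1l, Ctsb and Apex1 are chromosome 14 genes. The Dct ratio of 0.74 stood beside a chromosome median of 0.71, and beside 0.33 over the 4 genes of its own 10 Mb window. The windows on either side of that one had medians of 0.35 and 0.16. Tyr, at 2.33, stood beside 0.16 for its chromosome 7 and 0.17 for its own window. Cycling C4 over cycling C2 gave 0.70 for chromosome 14, 0.30 for chromosome 1, 0.20 for chromosome 2 and 0.19 for chromosome 7. The comparison of non-cycling C3 of B16F10 over the other 64 non-cycling B16F10 cells gave -0.09, near the median of -0.14 over all genes.

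**Figure D4:**
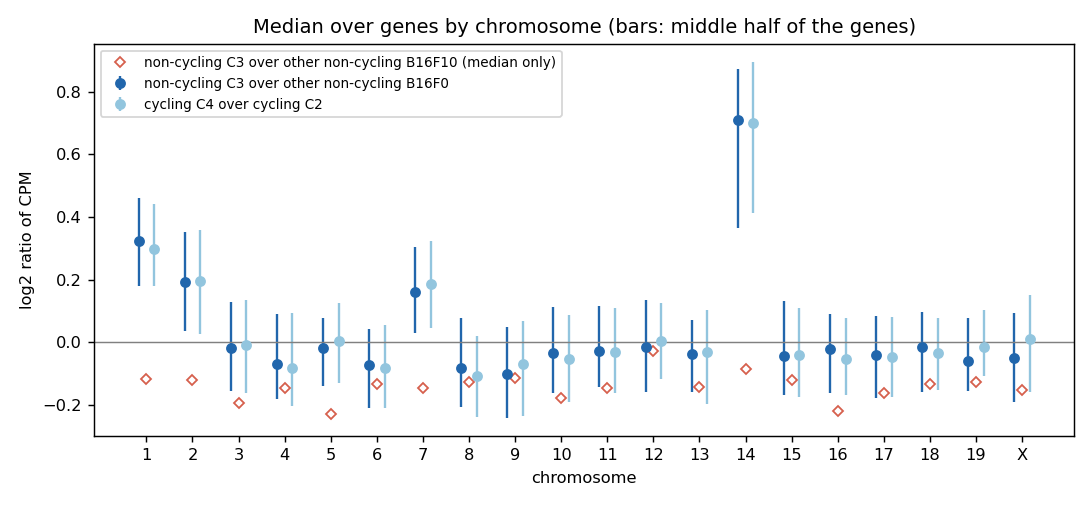
The y axis gives the median log2 ratio over the genes of each chromosome on the x axis, with bars for the middle 50% of genes; dark points are non-cycling C3 over other non-cycling B16F0 cells, light points cycling C4 over cycling C2, and open diamonds the B16F10 comparison. Chromosome 14 lies at 0.71 and 0.70 in the B16F0 comparisons and at -0.09 in B16F10.

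In single cells, 120 chromosome 14 genes together supplied a median of 3.27% of the UMIs in C3 (5th to 95th percentile 2.42 to 3.89%), where the total was taken over 4253 genes, leaving out those of 500 CPM or more. The median was 2.07% in C1, 1.93% in C2, 3.07% in C4 and 2.75% in B16F10 cells of C3. In the 1045 B16F10 cells of C5, of which 5.65% were non-cycling, it was 2.42%. Non-cycling and cycling B16F0 cells of C3 had medians of 3.27% and 3.32%. Most C3 cells were above most C1 cells, but not all: 63 of 640 were at or below 2.55%, the 95th percentile of C1, and 82 lay within 0.2 points of that value. These 63 cells were chosen by their measured share, so their values are a description: Rad54l was 22.8 CPM in them and 3.33 in the other C3 cells, and S100a6 32.4 and 6.03. Mbp (109 and 87.3 CPM) and Car6 (68.8 and 54.0 CPM), also lower in C3 than elsewhere, differed less. Of genes higher in C3, Lgals3 (88.1 and 215 CPM), Arfgef3 (64.4 and 84.7) and Creg1 (149 and 185) were lower in the 63 cells. Cited1 was higher in them (129 and 98.6 CPM). How many of the 63 the first clustering grouped with B16F10 was not counted. The pigment genes Pmel (1829 and 1827 CPM) and Trpm1 (133 and 129 CPM) were level, and Tyr was 118 and 144 CPM.

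**Figure D5:**
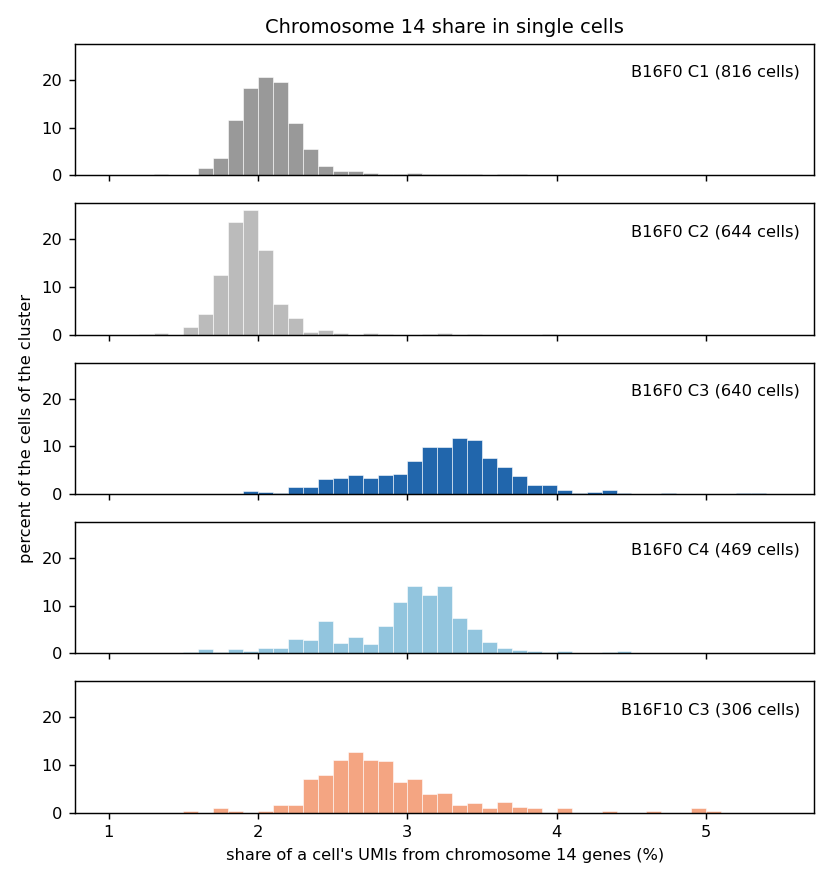
Histograms show, for the cells of each cluster, the percent of UMIs from 120 chromosome 14 genes on the x axis and the percent of the cells on the y axis. The B16F0 C3 and C4 cells centre on 3.27% and 3.07%, to the right of C1 (2.07%) and C2 (1.93%), with a tail of C3 cells that reaches the C1 range.

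Within C3 the pigment genes did not follow 1 course along the trajectory. Tyr was 119 CPM in state 5, 133 in state 6 and 149 in state 7, while Pmel went the other way with 2025, 1940 and 1735 CPM. Lgals3 was 278, 143 and 202 CPM, and it was 376 CPM in the 71 cycling C3 cells. Only 36 of the 95 state 5 cells (37.9%) were non-cycling, against all 124 of state 6 and 97.1% of state 7. The Kdm5b-high cells of C3 had Tyr, Pmel and Trpm1 levels of 146, 1809 and 134 CPM, against 141, 1829 and 129 CPM in the Kdm5b-low cells.

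A group of 16 C3 cells stood apart. The authors' first clustering placed them with B16F10, although their library is B16F0, and all 16 were non-cycling. The same label was on 92 of the 469 B16F0 C4 cells (19.6%), on all 13 of C5 and on none of C1 or C2. Without these cells the log2 ratios of non-cycling C3 and of cycling C4 had a Pearson r of 0.82 and a Spearman rho of 0.74 over 4417 genes. Their median MITF score was -0.212, against 0.286 in the other 624, and Tyr was 49.6 against 143 CPM, Pmel 926 against 1844 CPM, Cited1 11.8 against 103 CPM and S100a6 80.3 against 7.31 CPM. Only 1 barcode of a C3 cell occurred in both libraries, of 6 such barcodes in all. Without the cells of both classes that this clustering grouped with B16F10, the log2 ratio of C3 against all other B16F0 cells was 1.90 for Tyr, -4.12 for Rad54l and 2.20 for Lgals3, and the non-cycling comparison again had 55 higher and 45 lower genes.

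Cell-to-cell spread was measured as the Fano factor, the variance over the mean of thinned UMIs. The median was 1.09 over 8381 genes in C3 and 1.08 over 8575 genes in the other B16F0 cells. Ccl5, a chemokine, had the largest value (84.6 in C3, 85.4 elsewhere): only 71 C3 cells held any UMI, and 10 of them held 84.2% of the 1915. Gadd45b, a stress-induced gene, had 25.3 in C3 and 1.11 elsewhere, and 1 cell held 49 of its 96 UMIs, so this value rests on that cell. Pmel had 19.7 against 18.8, and the ferritin genes Ftl1 (43.1 against 49.2) and Fth1 (39.9 against 38.0) also varied widely in both classes.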

How the data were processed

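Per the file headers, the deposited counts are raw UMIs per gene and cell (14959 genes in 4156 cells). They also deposited the same cells as natural log values, which served only to check that they derive from the counts (largest difference 5.77e-15 over 500 genes). Per the file headers, another deposited table gives each cell's line, clusters, cycling class, trajectory state, Kdm5b class, and scores for S, G2/M and MITF. The sources used here do not say how any of these was obtained. The submitters' processing notes list Cell Ranger 3.0.0, Seurat 3.0 and mm10 without saying what each was used for. Cells held 3011 to 6996 genes and at most 19.9% mitochondrial UMIs, and all were kept. No doublet caller was run; an alternative leaves out the 5% of cells with the most UMIs.

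Raw counts were summed per class (22994801 UMIs in C3, 71273685 in the other B16F0 cells) and scaled to CPM. A count of 0 allows up to 3 counts, or 0.13 CPM in C3. Levels carry exact Poisson intervals, log2 ratios the exact conditional binomial interval, and shares the Clopper-Pearson interval, all at 95%. Genes were counted at 2-fold where either class reached 20 CPM, and members of 35 lists at 1.5-fold where either reached 10 CPM, with a list median where 3 members reached it. The members and lists were chosen with earlier results of these data known. Named genes are the 15 at either end of the ratio against all other B16F0 cells and the 10 at either end among non-cycling cells, at 50 CPM or more and without predicted, ribosomal protein and mitochondrial genes, plus all members of the enzyme, melanosome and regulator lists at 10 CPM, the 3 most different members of each other list, the 10 largest Fano factors, and Kdm5b, Mitf, Cdkn1a, Ccnd1 and Mki67. Neighbouring genes, Cdk2, Gmpr, Ifit1, Ifit3, Klf2, Klf4, Zfp36, Dusp1, Mcoln1, Fn1 and Timp3 were named after their values were seen. Of the gene symbols, 14756 (98.6%) matched 1 gene of GENCODE M21. Alternatives used TMM factors (edgeR 4.0.16), size factors (DESeq2 1.42.0), other totals, other cells and other minimums. Poisson counts were also simulated for 14959 genes in classes of these sizes, with a log2 ratio of 1.5 up or down in 200 genes of at least 20 CPM. All 200 changed genes and 0 unchanged ones were called in C3 against the other B16F0 cells. The planted size exceeded the 2-fold limit and the counts held no spread between cells. This checks the calculation only and gives no error rate for the calls in the real cells. The work used R 4.3.3, matplotlib 3.10.9, pandas 2.3.3, scipy 1.17.1 and numpy 2.4.6 under Python 3.11.15.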

Additional observations from a re-analysis of the deposited data

Results flagged for a closer look

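Of the 141 named genes, 4 differed at least 1.5-fold between non-cycling C3 cells and the other non-cycling cells in opposite directions in the 2 lines, with counting intervals that exclude 0 in both. The difference between the lines was not tested, since each line is 1 library, and the B16F10 comparison rests on 280 and 64 cells. Hk1, the hexokinase, was 10.0 against 26.5 CPM in B16F0 (-1.40) and 35.4 against 23.3 CPM in B16F10 (0.61), a difference of -2.01. Apex1, the repair endonuclease, was 89.4 against 43.0 CPM in B16F0 (1.06) and 41.1 against 79.3 CPM in B16F10 (-0.95), a difference of 2.01. Mmp14, a membrane-bound metalloprotease, was 44.1 against 25.3 CPM (0.80) and 29.1 against 46.1 CPM (-0.66), a difference of 1.46. Hspb1, a small heat shock protein, was 43.6 against 24.6 CPM (0.82) in B16F0, and in B16F10 its levels were only 0.994 and 4.27 CPM (-2.10), a difference of 2.93. Apex1 and Mmp14 are chromosome 14 genes.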

How the results depend on the processing

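No named gene at 2-fold and no list median at 1.5-fold changed direction under the alternatives run, but of all 2800 gene values and 682 list medians, 35 and 22 lay on the other side of 0, each where the reported value was smaller. Among them were ratios against all other B16F0 cells that changed sign among cycling cells alone, such as Rsad2 from 0.70 to -0.22 and Pax3 from 0.33 to -0.11. The medians among non-cycling cells of the regulators (thinned) and of the MITF targets outside pigmentation (50 CPM) went to just under 0. The counts of 2-fold genes moved with the minimum level. Against all other B16F0 cells, the 27 higher genes became 45 at 10 CPM, 10 at 50 CPM and 893 with no minimum, and 44 when mitochondrial and ribosomal protein genes were left out of the total. The 169 lower genes became 280, 72 and 923 under these minimums, and 105 among cycling cells alone. Among non-cycling cells the 55 higher genes became 85, 21 and 901, and the 45 lower genes 72, 17 and 722. Leaving out chromosome 14 left 31 higher genes, and this alternative and those without the cells grouped with B16F10 were chosen after seeing the data. The other 37 counts stayed within 1.5 times. The chromosome 14 median ranged from 0.63 to 0.72. For single genes 2431 values moved by less than their counting interval and 369 by more, and for lists 612 and 70. Among cycling cells alone the S phase median was -0.27. Equal weighting of clusters could not be run among non-cycling cells, where only C1 had enough cells. No paired analysis was possible because each line was 1 library and the labels carry no replicate numbers. The counting error of a gene at low CPM limits small classes most, such as the 16 and 64 cells above.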
